A study of Homo sapiens with 3 samples.

Results

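The interferon response and antigen presentation genes described here are 38 human genes: transcription factors of the interferon pathway, cytosolic RNA sensors, the ISG15 modifier and its protease, antiviral effectors, genes named for their induction by interferon, and the machinery that loads and displays peptides on MHC class I. They were chosen by name, and a probe was counted for a gene where the platform annotation names that gene. The annotation named 63 probes for 37 of the 38 genes, among 30109 probes with a single gene symbol and 20043 symbols in all. STAT2 had no probe named here and was not analysed here. The brightest probe of 29 genes was detected on at least 1 array, at a detection p-value under 0.01 against the negative controls of that array.

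The cells were HCC1937, a long-established line from a human breast tumour that is labelled basal, and the study concerns how hormones and nutrients shape its state. Every group was cultured in DMEM holding 3 mM glucose and 0.5 mM glutamine. Each of the 3 groups was 1 Illumina bead array: untreated cells, cells exposed for 16 h to the synthetic glucocorticoid dexamethasone at 200 nM, and cells exposed for 16 h to 200 nM dexamethasone plus 1 µM retinoic acid. There was no group with retinoic acid alone, so the combination was read against untreated cells and against dexamethasone.

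Interferons bind receptors at the cell surface, whose Janus kinases activate STAT and IRF transcription factors. These act at short promoter elements of the interferon-stimulated genes, many of which block virus replication. The same factors control class I presentation, in which the proteasome cuts cytosolic proteins, the TAP transporter moves the peptides into the endoplasmic reticulum, and HLA heavy chains with beta-2-microglobulin carry them to the surface. Glucocorticoids restrain inflammatory gene expression in many tissues, and retinoic acid acts through nuclear receptors that bind DNA.

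The promoter elements of these genes are shown first, because they are what many of the members share beyond their names. Promoter windows from 250 bases before to 50 bases after the start site were available for 29 of the 38 genes (RefSeq, GRCh38.p14). HLA-E, IFIT2, IFITM2, IRF2, IRF7, MX2, OAS2, OASL and USP18 had none. Both strands were searched for the core of the interferon-stimulated response element that IRF9 complexes and IRFs bind, spelled as GAAA, any 2 bases and GAAA. It was present in 19 of the 29 windows (65.5%), against 996 of 27305 promoters of the same length (3.65%). The gamma-activated site TTCNNNGAA, bound by STAT dimers, was present in 7 of 29 (24.1%), against 7.88% of all promoters. The hexamer AGAACA, a part of the glucocorticoid receptor's element, was in 2 of 29 (6.9%), IFIT3 and PSMB8, against 14.9% of all promoters. The whole glucocorticoid element (AGAACA, any 3 bases and TGTTCT) and pairs of the retinoic acid receptor hexamer AGGTCA spaced by 2 or 5 bases were in 0 of the 29 windows, and in at most 1 of the 27305. Overlapping matches within a window counted once, and a match is a string of letters, not a measured binding site.

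The windows below belong to members whose differences or levels carry the results, each read 5′ to 3′ on the strand of its gene, with the matched letters in capitals and 15 bases on either side. A match that reads TTTC in capitals lies on the opposite strand.
ISG15 response element, chr1:1013375-1013414, plus strand: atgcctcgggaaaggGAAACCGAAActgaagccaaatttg
ISG20 response element, chr15:88638932-88638971, plus strand: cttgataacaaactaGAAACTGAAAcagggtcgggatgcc
IFIT3 response element, chr10:89327860-89327899, plus strand: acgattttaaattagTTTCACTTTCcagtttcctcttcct
TAP1 response element, chr6:32853814-32853853, minus strand: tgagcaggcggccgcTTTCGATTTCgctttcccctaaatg
B2M response element, chr15:44711364-44711403, plus strand: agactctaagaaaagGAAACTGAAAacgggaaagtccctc
IFIH1 response element, chr2:162318813-162318852, minus strand: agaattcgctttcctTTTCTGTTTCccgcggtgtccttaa
IRF1 gamma-activated site, chr5:132490874-132490912, minus strand: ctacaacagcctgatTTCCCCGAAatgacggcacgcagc
The same GAAACTGAAA string stands in the ISG20 and B2M windows, and in those of BST2, IFITM1 and OAS3, which are not shown. With the combination, ISG20, BST2 and IFITM1 lay below untreated cells, B2M above them and OAS3 within its bead error. Whether the string goes with direction was not tested.

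The 3 arrays detected 16635 to 17091 probes, with a median of 21 or 22 beads behind each probe. Their median intensities, not yet scaled, ran from 131.6 to 159.0, so an unscaled intensity can be larger on a treated array while its normalised level is lower. Levels and differences below are therefore log2 values after background correction and quantile normalisation, and the unscaled bead intensities with their bead standard error (SE) are given beside them. With 1 array per group there is no replicate check and no test. The bead SE covers the spread between beads of 1 array and not that between cultures, so precision is limited by having 1 array per group. A gene was called higher or lower at a log2 difference of at least 1, that is 2-fold. The untreated and combination arrays shared a slide and the dexamethasone array lay on another, so slide and treatment cannot be told apart wherever the dexamethasone array is compared. The glucocorticoid target FKBP5 read 856 on the untreated array, 10505 with dexamethasone and 9172 with the combination. CYP26A1, a retinoic acid target that degrades retinoic acid, was detected only on the combination array, at 6159.6. The luminal genes ESR1, at 1028, and TFF1, at 17170.5, were detected in untreated cells, which goes against the basal label. The luminal gene PGR was undetected on all 3 arrays. Of the basal genes, the keratin KRT14 was undetected on all 3 arrays, the keratin KRT5 was detected with dexamethasone alone, at 479, and EGFR was detected on all 3. The basal genes KRT17 and TP63 had no probe named here. All 4 measured luminal genes (ESR1, GATA3, FOXA1 and TFF1) were called lower with dexamethasone than without treatment, with a median of -1.53, and 3 of the 4 with the combination, with a median of -1.01. Against dexamethasone, the combination had a luminal median of 0.65, with 3 of the 4 above 0. These markers of cell state thus differed between the arrays. Their part in the member differences below was not tested. The leukocyte genes PTPRC, CD3E, ITGAM and NKG7 were undetected on all 3 arrays, CD14 was detected on the combination array at 269, and CD68 on all 3 arrays. Fewer cells expressing a gene and less RNA per cell cannot be told apart in such bulk samples.

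With dexamethasone, the class I presentation genes among the members lay mostly above their untreated levels and the other members mostly slightly below, with few differences of 2-fold. The further genes listed with presentation outside the members, described last, lay mostly below. Of the 28 members measured, 0 were called higher, where 5.73% of all 10852 measured genes were, and 3 were called lower, USP18, IFIT3 and ISG20 (10.7%), where 4.57% of all genes were. The median member difference was -0.05, and that of all measured genes 0.00. The 7 measured class I presentation genes had a median of 0.57, with 6 above 0, and this median ran from 0.24 to 0.57 under 10 alternatives. The median is the value of TAPBP by its brightest probe. A second, dimmer TAPBP probe went the other way, with a bound of -0.40 or lower. The 21 other measured members had a median of -0.10, with 4 above 0 and 17 below, and ran from -0.14 to -0.04. Of these, USP18, IFIT3, IFI44L and IRF2 were undetected with dexamethasone and read as bounds, which could not lie above 0.

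With dexamethasone and retinoic acid together, 2 members were called higher than in untreated cells, IRF1 and TAP1, and 4 lower, IRF7, ISG15, IFIT3 and ISG20, of 29 measured. The shares were 6.9% and 13.8%, beside 5.84% and 5.43% of all 10705 measured genes, and the member median was -0.05 beside -0.01. The 8 measured class I presentation genes had a median of 0.36 with 7 above 0, and the 21 others a median of -0.39 with 14 below 0. Under the alternatives these ran from 0.12 to 0.36 and from -0.49 to -0.13. PSMB9, undetected in untreated cells, was read as a bound that could not lie below 0. Likewise IRF2, IFI44L and OAS1, undetected with the combination, could not lie above 0. Both comparisons use the same untreated array, so their values share its error.

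Against dexamethasone alone, the combination had 0 members called higher and 1 called lower, ISG15, of 27 measured, where 2.99% and 3.58% of all 10734 measured genes were called. The member median was -0.13, with 12 above 0 and 15 below, beside -0.01 for all genes. It was -0.29 over genes detected on both arrays and turned to 0.24 without the HLA and IFITM genes, so it has no settled direction. Among the members counted, USP18, IFIT3 and PSMB9 were undetected with dexamethasone, and as bounds could not lie below 0. OAS1, undetected with the combination, could not lie above 0. The presentation genes had a median of -0.01, which ran from -0.17 to 0.27 under the alternatives, and the others -0.27, which ran from -0.29 to 0.01.

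**Figure D1:**
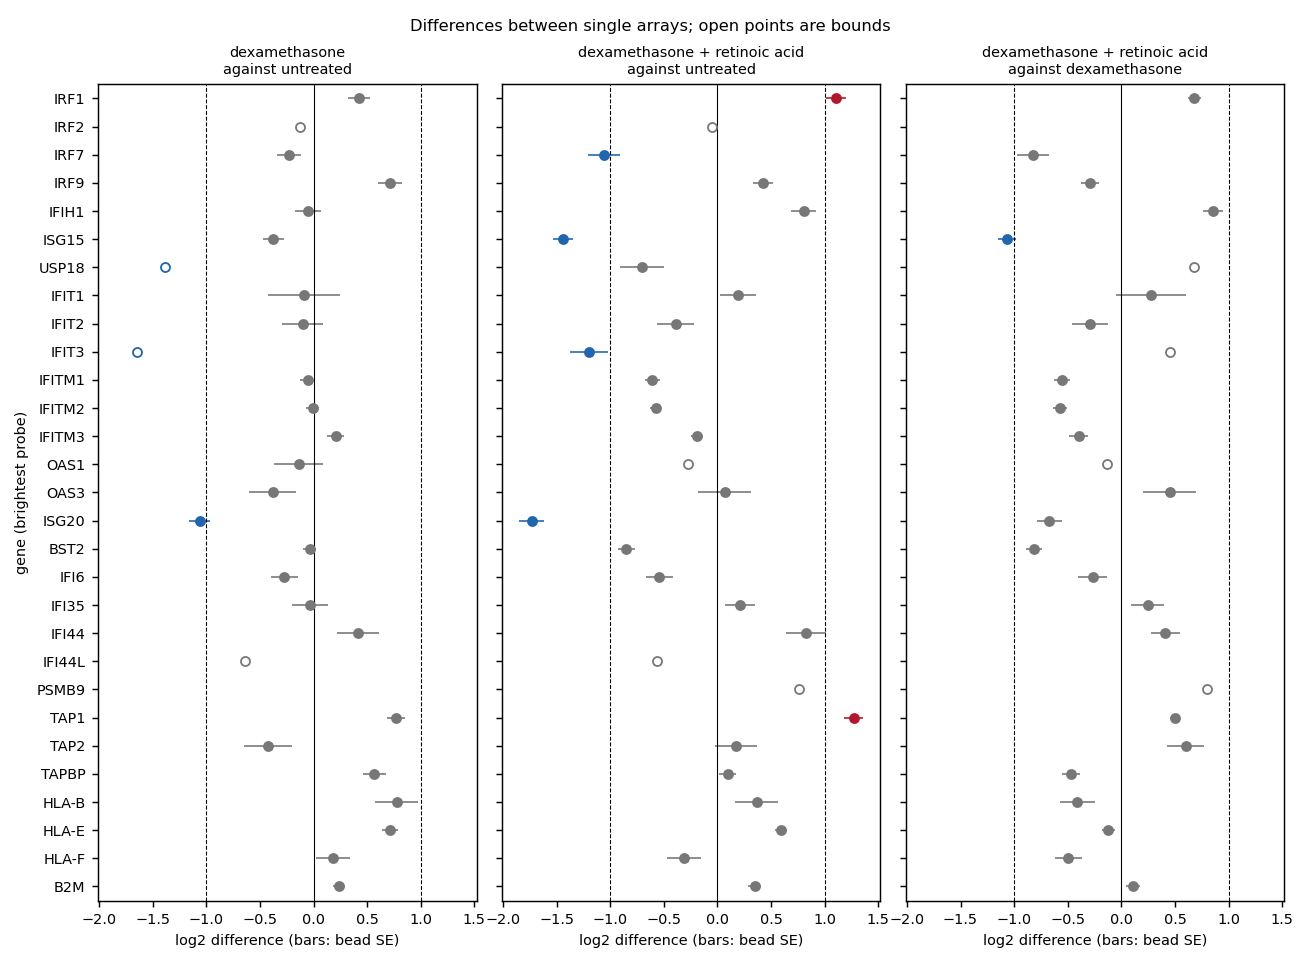
Log2 difference of each measured member (rows) in the 3 comparisons (panels), by its brightest probe; bars are the bead SE and open points are bounds where 1 of the 2 arrays did not detect the probe. ISG20, IFIT3 and ISG15 lie to the left and TAP1 and IRF1 to the right in the comparison of the combination with untreated cells.

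**Figure D2:**
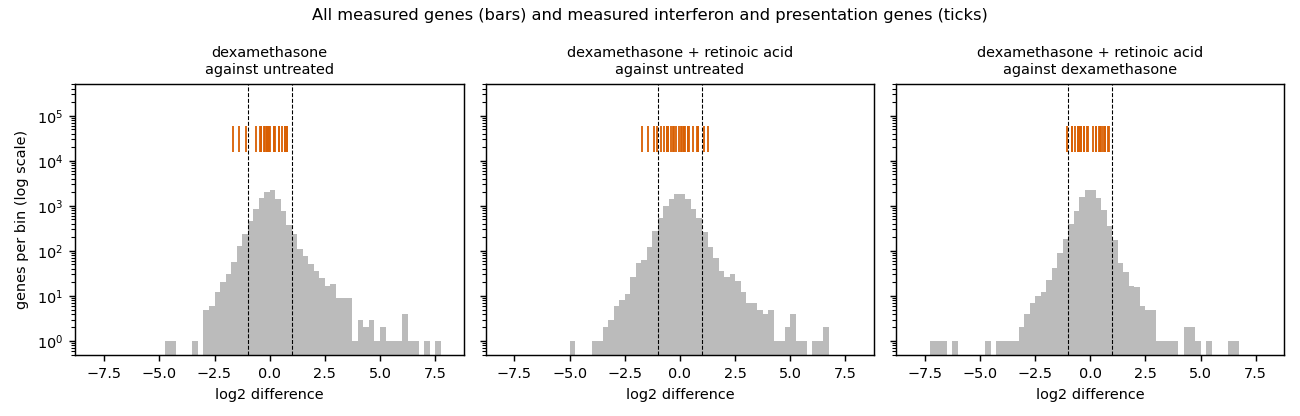
Number of measured genes per bin of log2 difference (bars, log scale on the vertical axis) in each comparison, with the measured members as ticks. The members lie mostly within 2-fold of 0, inside the bulk of the 10705 to 10852 genes measured.

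Among the transcription factors, IRF1, which activates class I and interferon genes and is itself induced by interferon gamma, was the factor called higher. Its unscaled intensity was 312 ± 12.5 (bead SE) on the untreated array, 507 ± 13.3 with dexamethasone and 958 ± 19.3 with the combination, and its log2 levels were 8.20, 8.62 and 9.30. The level was highest on the combination array and lowest on the untreated array. The combination exceeded untreated cells by 1.11 (bead SE 0.09), or 2.15-fold, while dexamethasone alone exceeded them by 0.42 (0.10) and the combination exceeded dexamethasone by 0.68 (0.06). The 2-fold call ended without background correction, at 0.86, and in the authors' deposited normalised values, at 0.84.

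IRF7, the factor that amplifies type I interferon production, had log2 levels of 7.94, 7.71 and 6.88 in the same order. It was 2.08-fold lower with the combination than without treatment (-1.05, bead SE 0.15), from 9 beads on the combination array against 27 and 31 on the untreated and dexamethasone arrays. That call held under 6 of 10 alternatives, where the value ran from -1.05 to -0.40, and the other probes of IRF7 were undetected. IRF9, the DNA-binding subunit of the complex formed with STATs under type I interferon, read 395 ± 16.3, 777 ± 33.8 and 843 ± 22.8. It differed from untreated cells by 0.71 (0.11) with dexamethasone and by 0.42 (0.09) with the combination, within 2-fold in each case. IRF2, an antagonist of IRF1 at shared elements, was detected on the untreated array alone, at 148, and lay near background throughout.

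Of the RNA sensors, DDX58, which encodes RIG-I, was undetected on all 3 arrays. IFIH1, which encodes the double-stranded RNA sensor MDA5, read 213 ± 7.28, 266 ± 6.94 and 466 ± 14.8, with log2 levels of 7.22, 7.17 and 8.02. The untreated and dexamethasone levels lay within their bead error (-0.05, bead SE 0.12), and the combination stood above both, by 0.80 (0.12) and 0.85 (0.09), within 2-fold.

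ISG15, a ubiquitin-like protein that is joined to other proteins after interferon treatment, had log2 levels of 10.53, 10.15 and 9.09 and unscaled intensities of 1186 ± 55, 1224 ± 47.7 and 835 ± 29.9. The combination array was the lowest of the 3. It lay 2.71-fold below untreated cells (-1.44, bead SE 0.10) and 2.09-fold below dexamethasone (-1.07, 0.09), while dexamethasone differed from untreated cells by -0.37 (0.10). The call against untreated cells held under all 10 alternatives, between -1.44 and -1.25, and the call against dexamethasone under 7 of 10, between -1.07 and -0.92. The latter ended without background correction, with 75th percentile scaling and in the deposited normalised values. ISG15 has 1 probe, detected on all 3 arrays, so the alternatives of detection, bound and probe could not move its values. USP18, the protease that removes ISG15 and dampens interferon receptor signalling, was detected on the untreated array at 195 ± 9.02 and on the combination array at 218 ± 8.84, and was undetected with dexamethasone. After normalisation the combination was 1.63-fold below untreated cells (-0.70, bead SE 0.20). Dexamethasone was at least 2.61-fold lower than untreated cells, and the combination at least 1.60-fold higher than dexamethasone. The call for USP18 held under 6 of 9 alternatives, from -1.49 to -0.49.

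ISG20, an exonuclease that degrades viral RNA, was an antiviral effector with calls in both comparisons against untreated cells and a single detected probe. Its log2 levels were 9.22, 8.16 and 7.49, and its unscaled intensities 527 ± 19.9, 404 ± 14.1 and 359 ± 15.1. The untreated array was highest and the combination lowest on either scale. It was 2.08-fold lower with dexamethasone (-1.06, bead SE 0.10) and 3.32-fold lower with the combination (-1.73, 0.12), and the 2 treated arrays differed by -0.67 (0.12). The combination's value held at 2-fold or more under all 10 alternatives, from -1.73 to -1.21. That of dexamethasone held under 7 of 10, from -1.06 to -0.80. It ended without background correction (-0.82), at an offset of 50 (-0.98) and in the deposited normalised values (-0.80). With 1 probe detected on all 3 arrays, only the alternatives of background, scaling and deposited values could move these values.

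IFIT3, a partner of the IFIT proteins that bind viral RNA, read 212 ± 7.85 without treatment, was undetected with dexamethasone and read 204 ± 7.21 with the combination. It was at least 3.14-fold lower with dexamethasone than without, and 2.29-fold lower with the combination (-1.20, bead SE 0.17). Its second detected probe was also undetected with dexamethasone, where its bound was smaller, at -0.34 on the log2 scale against -1.65 for the brightest probe. For the combination the second probe gave -0.04 (0.25), so the probes differed in size there too. The 2 calls held under 5 of 9 and 5 of 10 alternatives. Of the relatives, IFIT1 differed from untreated cells by -0.09 and 0.19 and IFIT2 by -0.10 and -0.39, with dexamethasone and the combination in turn.

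The IFITM proteins block virus entry at membranes. IFITM2 had log2 levels of 12.75, 12.74 and 12.17, and IFITM1 of 9.35, 9.30 and 8.75, so in both the combination array was lowest, by -0.58 and -0.61 against untreated cells, within 2-fold. IFITM3 differed by 0.21 and -0.19. The sequences of the IFITM genes are close, and a probe may read more than 1 of them. BST2, a tether that holds virus particles at the cell surface, had the same order, with log2 levels of 9.99, 9.95 and 9.14 and differences of -0.85 (bead SE 0.08) against untreated cells and -0.81 (0.08) against dexamethasone. MX1, MX2, OAS2 and OASL, all classical interferon-stimulated antiviral genes, were undetected on all 3 arrays. OAS1 and OAS3, which make the messenger that activates RNase L, read 154 to 180.0 and 160.1 to 215 over the 3 arrays, near background and within 2-fold.

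Among the genes named for induction, IFI44 read 204 ± 11.2, 302 ± 13 and 435 ± 18.5 and had log2 levels of 7.07, 7.48 and 7.89, the combination being 0.82 (bead SE 0.19) above untreated cells. IFI6, a mitochondrial and endoplasmic reticulum protein, had levels of 8.90, 8.63 and 8.36, a difference of -0.54 (0.13) in the opposite direction, and its second probe gave -0.36. IFI35 differed by -0.03 and 0.21. IFI44L was detected on the untreated array alone, and IFI27 on none.

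**Figure D3:**
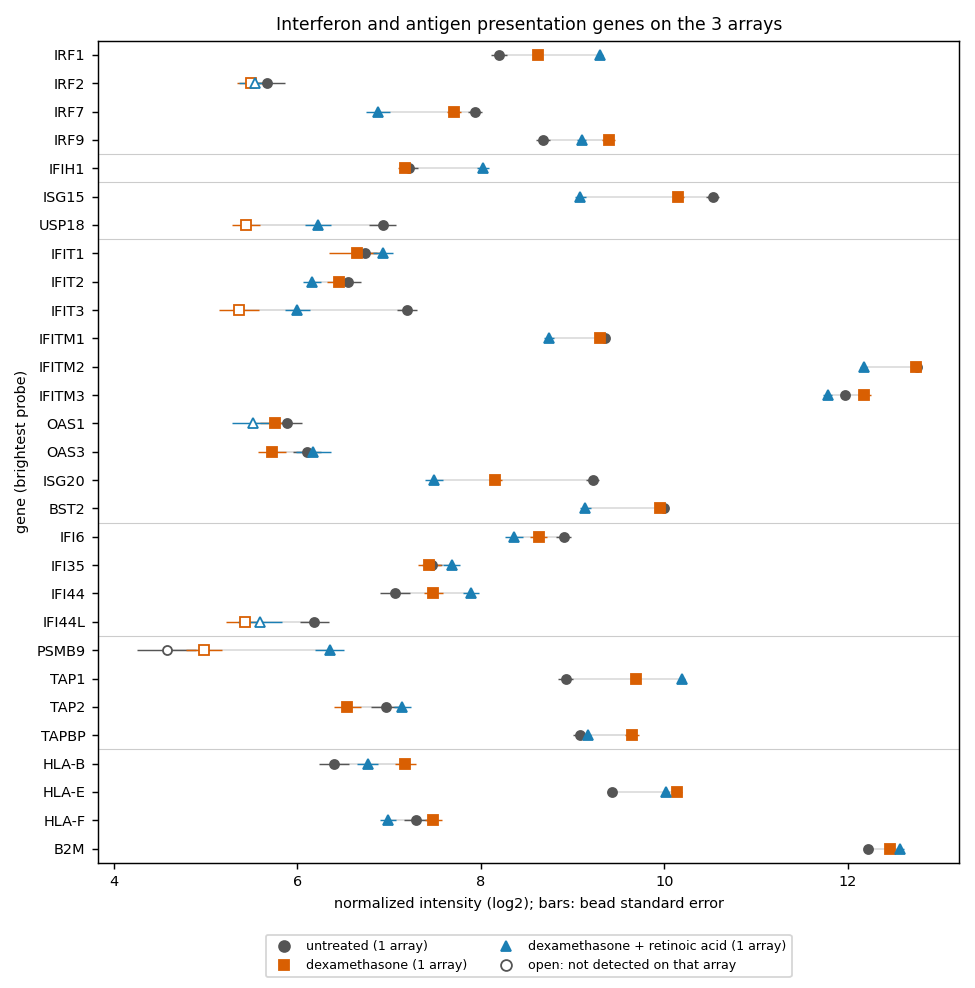
Normalised log2 intensity (horizontal axis) of each member detected on at least 1 array (rows, by role), for the untreated, dexamethasone and combination arrays; bars are the bead SE and open points were not detected on that array. TAP1 and IRF1 step up from untreated to combination, and ISG15 and ISG20 step down.

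In the presentation machinery 1 gene was called higher, TAP1, which encodes a chain of the peptide pump and is the divergent neighbour of PSMB9. Its unscaled intensity was 450.5 ± 19.3, 929.6 ± 12.7 and 1650.1 ± 36.9, and its log2 levels 8.92, 9.70 and 10.20. The levels stepped up from untreated to dexamethasone to the combination. The combination was 2.41-fold above untreated cells (1.27, bead SE 0.09), dexamethasone 1.71-fold above them (0.77, 0.08), and the combination 1.41-fold above dexamethasone (0.50, 0.04). The call held under all 10 alternatives, from 1.08 to 1.38, of which those of detection, bound and probe could not move this 1-probe gene. Its partner TAP2 differed by -0.42 with dexamethasone and 0.17 with the combination, and its second probe by -0.76 and 0.24. Against dexamethasone the combination read 0.60 (0.17) by the brightest probe and 1.01 (0.26) by the second.

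PSMB9, an interferon-inducible proteasome subunit, was detected on the combination array alone, at 227 ± 10.6, and was at least 1.69-fold above untreated cells and at least 1.74-fold above dexamethasone. Its second probe was also detected on that array alone, at 191, with bounds of 0.15 and 0.20 on the log2 scale. The differences of PSMB9 ran from 0.04 to 1.77 and from 0.05 to 1.37 under the alternatives, above 0 in each but of unsettled size. PSMB8, another such subunit, was undetected. TAPBP, the tapasin that bridges TAP to class I molecules, read 0.57 (bead SE 0.11) above untreated cells with dexamethasone and 0.10 (0.08) with the combination by its brightest probe. A second, dimmer probe was undetected with dexamethasone, where it bounds the difference at -0.40 or lower, and gave -0.33 (0.32) with the combination. The probes thus differ in direction with dexamethasone, and with the combination each lies close to its bead error.

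HLA-E, a class I molecule that natural killer cells read, had log2 levels of 9.43, 10.14 and 10.02, so both treated arrays stood above the untreated one, by 0.71 (bead SE 0.07) and 0.59 (0.06). HLA-B, a classical heavy chain, differed by 0.78 (0.20) and 0.37 (0.20) from 171 ± 7.51 in untreated cells. HLA-F differed by 0.19 and -0.31. B2M, the shared light chain, read 3741 ± 92.2, 5626 ± 162 and 7734 ± 246, and lay 0.24 (0.06) and 0.35 (0.06) above untreated cells, with 0.39 and 0.37 from its other probe. HLA-C was undetected. The HLA genes are polymorphic and near-identical to one another, so a probe can misread them.

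Genes of the pathway outside the members show where its upper steps stood. The interferon ligands were undetected, with 0 of 10 listed genes detected on any array. Of 14 measured receptors, kinases and inhibitors, 4 were called higher and 0 lower with dexamethasone, and of 13 with the combination 2 were called higher and 0 lower. Those called higher are 28.6% and 15.4%, beside 5.73% and 5.84% of all genes. JAK1, the kinase shared by interferon receptors, read 265 ± 10.7, 1069.7 ± 38.6 and 1569.8 ± 53.2, and was 4.39-fold above untreated cells with dexamethasone and 4.96-fold with the combination. IFNGR1, the binding chain of the interferon gamma receptor, read 418 ± 12.6, 1260.1 ± 35.3 and 1564 ± 43.5, or 2.68-fold and 2.52-fold above untreated cells. Both held at 2-fold or more under all 10 alternatives in both comparisons, of which those of detection, bound and probe could not move these 1-probe genes. STAT3 was 2.81-fold higher with dexamethasone (1.49, bead SE 0.09) and 1.66-fold higher with the combination. JAK2 was undetected in untreated cells and at least 2.09-fold higher with dexamethasone, a call that held under 5 of 9 alternatives. IFNAR1, a chain of the type I receptor, differed by 0.10 and -0.05, and IFNGR2, the second chain of the interferon gamma receptor, by 0.10 and 0.09. IFNAR2, the other type I receptor chain, differed by -0.47 (0.22) and 0.16 (0.19), and the Janus kinase TYK2 by -0.41 (0.08) and -0.73 (0.07). The list median was 0.40 with dexamethasone, with 12 of 14 above 0. With the combination it was -0.04, with 6 above 0 and 7 below.

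Among 12 measured sensing adaptors, kinases and regulators, 2 were called higher with dexamethasone, TNFAIP3 and NFKBIA. Among 11 with the combination 3 were, the same 2 and MAVS. These are 16.7% and 27.3%, beside the same 5.73% and 5.84%, and no adaptor or kinase was called with dexamethasone. TNFAIP3 and NFKBIA, inhibitors of NF-kB that respond to glucocorticoids, were at least 4.27-fold and 2.0-fold higher with dexamethasone and at least 3.16-fold and 2.62-fold higher with the combination. MAVS, the adaptor of the RNA sensors, was 2.12-fold higher with the combination. The calls for TNFAIP3 held under 7 of 9 alternatives in each comparison, that for NFKBIA with dexamethasone under 7 of 10, and that for MAVS under 6 of 10. Of the further interferon-stimulated genes, 2 of 23 measured were called higher with dexamethasone, SP110 and IFI16, and 3 of 24 with the combination, PARP9, PARP14 and SP100, with 0 lower in either. The shares were 8.7% and 12.5%, the first near the 5.73% of all genes and the second beside 5.84%, and the call for SP100 held under 5 of 10 alternatives. PARP9, which forms a complex that ubiquitinates histones in interferon responses, read 179 ± 10.3, 277 ± 10.3 and 998 ± 40.1. It lay 6.78-fold above untreated cells and 4.32-fold above dexamethasone, and its other probe gave log2 differences of 2.82 and 2.74. Against dexamethasone, PARP9 was the 1 gene of 25 measured in this list called higher, and 1 other was called lower. Each is 4.0%, beside 2.99% and 3.58% of all genes. PARP14 was 2.45-fold above untreated cells with the combination, and SP110, a nuclear body protein, was 2.94-fold above them with dexamethasone. The further genes listed with presentation had 0 of 13 higher and 2 lower with dexamethasone, PSME3 at 2.35-fold lower and FCGRT at least 2.86-fold lower. Those 2 do not themselves load or display class I peptides. The median of that list was -0.52, with 11 of 13 below 0, and with the combination -0.23, with 11 of 14 below 0, opposite in sign to the medians of the presentation genes among the members. CALR, the chaperone calreticulin, was 2.09-fold lower with the combination. The call for PSME3 held under 9 of 10 alternatives, those for CALR, PARP14 and IFI16 under 7 of 10, and that for FCGRT with dexamethasone under 7 of 9. FCGRT was called higher with the combination than with dexamethasone, by at least 1.29 on the log2 scale, under 6 of 9 alternatives. It was the 1 call among 14 genes there (7.14%, beside 2.99% of all genes). Of 9 measured constitutive proteasome subunits, 0 were called in either comparison against untreated cells.

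**Figure D4:**
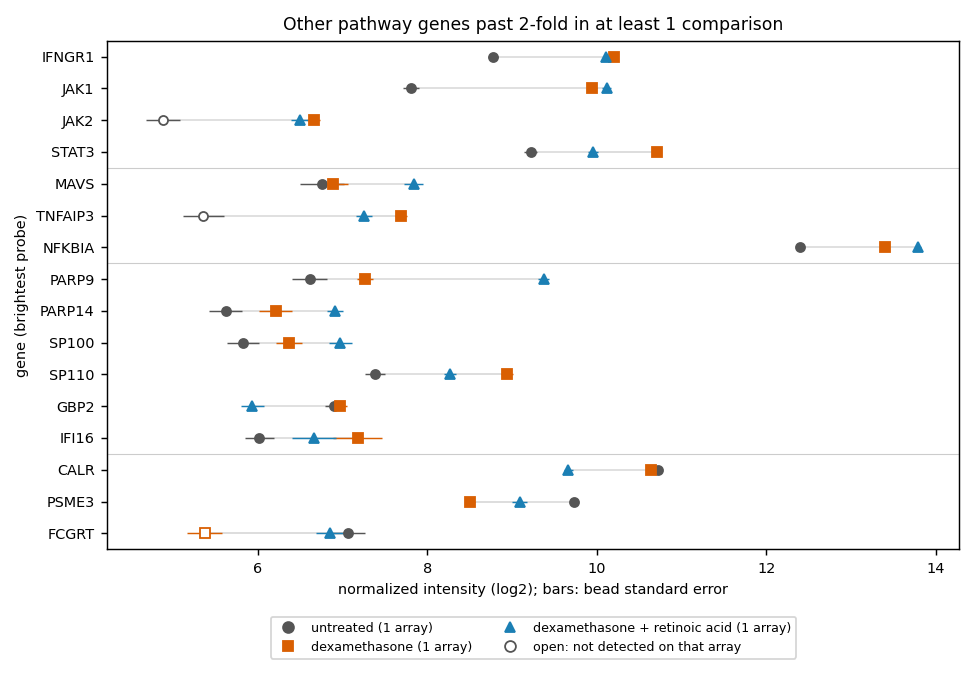
Normalised log2 intensity (horizontal axis) of pathway genes outside the members on the 3 arrays; bars are the bead SE and open points were not detected on that array. JAK1 and IFNGR1 stand higher with either treatment than without, and PARP9 stands highest on the combination array.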

How the data were processed

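Per the labels' protocols, RNA taken up in Trizol was cleaned on RNeasy columns with DNase I, and biotin-labelled cRNA was hybridised. Per the file headers, the deposited table gives for each probe an intensity (the mean over beads, not normalised), a bead count and a bead standard error. It also gives a detection p-value, per the file headers, taken here as a comparison of the probe with that array's negative controls. A second deposited table of normalised intensities had medians of 137.4, 137.5 and 137.5 and served as an alternative. The authors' software is not given in the sources used here.

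Background correction used limma 3.58.1 in R 4.3.3 (normexp, offset 16, negative controls inferred from the detection p-values), then quantile normalisation and log2. Later steps ran in Python 3.11.15 (matplotlib 3.10.9, numpy 2.4.6, pandas 2.3.3). Each gene was read from its brightest named probe and measured if detected at p under 0.01 on 1 of the 2 arrays compared. Where 1 array missed the probe, the smallest value detected on that array stood in for it, or the probe's own value if higher, so the fold is a bound. If that put the missed side on top, the difference was taken as 0, so a bound can lie on 1 side of 0 only. Arrays were grouped by their labels. No test was run because each group holds 1 array, and the code for differences was tested on simulated data. 17198 probes were unnamed here. The members and gene lists were chosen with earlier results of these data known. Members past the rule, those whose probes differ and pathway genes past it were named, up to 4 per list. SP100, IFNAR2 and TYK2 were named after their values were seen. Alternatives varied the background, scaling, detection, bound, probe and size rule, or used the deposited normalised values. For a gene with 1 named probe detected on every array, those of detection, bound and probe leave its value unchanged by construction. Counts of alternatives under which a call held include them.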

Additional observations from a re-analysis of the deposited data

How the results depend on the processing

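With no background correction, 0 members were lower with dexamethasone (3 in the main values), 1 was higher and 2 were lower with the combination (2 and 4), and 0 were lower in the combination against dexamethasone (1). The authors' deposited normalised values gave 0, 1, 2 and 0 in the same order. An offset of 50 gave 1 lower with dexamethasone and 2 lower with the combination. Detection on both arrays gave 1 lower with dexamethasone and moved the median of the combination against dexamethasone from -0.13 to -0.29. Scaling to the 75th percentile moved the median of the combination against untreated from -0.05 to -0.21 and left 0 members lower against dexamethasone. The median over all named probes gave 2 lower with the combination, a median of 0.10 and 1 member higher against dexamethasone. No bound gave 1 higher and a median of -0.24 there, and 1 was higher without the detection filter and at a detection p under 0.05. A 1.5-fold rule gave 4 higher and 4 lower with dexamethasone, 6 higher and 7 lower with the combination, and 5 higher and 4 lower against dexamethasone. Leaving out the HLA and IFITM genes, an alternative added after seeing the data, turned that last median to 0.24. The cause of these moves was not tested, beyond fewer genes measured where a filter or list was narrowed. The member differences past 2-fold, read again under the alternatives, gave 98 values that all kept their sign, as did 265 of 270 medians of the role lists. These are re-readings of the same 3 arrays for differences picked by their size, so they are no separate check. Over all genes, the calls with no background correction were 306 higher and 177 lower, 272 and 241, and 108 and 153 in the 3 comparisons, against 622 and 496, 625 and 581, and 321 and 384. The deposited normalised values gave 289 and 165, 259 and 221, and 105 and 145. An offset of 50 gave 325 lower with dexamethasone and 199 higher for the combination against dexamethasone. No paired analysis was possible because each group holds 1 array. Dim probes near background and the single array per group limit the values above.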
